A study of Homo sapiens with 6 samples.

Results

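Binding of hnRNP A1 to 6 long noncoding RNAs of the nucleus was followed in PAR-CLIP data, namely MALAT1, NEAT1, TUG1, KCNQ1OT1, MEG3 and GAS5. A cluster (a called binding site) was counted for one of them when the deposited list named that RNA's gene as the one with the nearest start, and the cluster lay inside the annotated gene on its strand. This gave 18 clusters of the 16269 in all 6 libraries, and they covered 12 separate sites. TUG1 had 6 clusters, MALAT1 had 5, NEAT1 had 4, KCNQ1OT1 had 2, GAS5 had 1 and MEG3 had 0. Thus 5 of the 6 had a cluster in some library, beside 6.05% of the 62296 annotated genes, whether or not the cells make their RNA. By group, 4 of the 6 had an A1 cluster (5.67% of all genes), 2 an A1-HMW cluster (1.09%) and 4 an A1dm cluster (0.713%).

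PAR-CLIP locates the RNA stretches that a protein touches in living cells. The cells take up 4-thiouridine, which ultraviolet light ties to a protein in contact with it, and the tied base is later copied as C in place of T. The cell line was HEK293T, derived from human embryonic kidney. It was transiently transfected with plasmids for myc-tagged hnRNP A1, and the tagged protein was precipitated with a rabbit polyclonal antibody against myc. The 3 groups, each of 2 libraries, were WT monomeric complexes (A1, labelled WT_L), the slower WT band that the labels call dimeric (A1-HMW, labelled WT_U), and monomeric complexes of the mutant with the substitutions R75D and R88D (A1dm, labelled MUT_L). All 6 libraries thus come from cells with a tagged protein made from a plasmid, and cells of the same line without the plasmid were not analysed here. The lists hold called sites and no expression values, so markers of the cell line could not be checked.

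Long noncoding RNAs of the nucleus act as scaffolds, as guides of chromatin factors, or through the very act of being transcribed. MALAT1 gathers in nuclear speckles, the stores of splicing factors, and NEAT1 is the RNA on which paraspeckles are built. TUG1 is an RNA of nucleus and cytoplasm that has been linked to chromatin repression. KCNQ1OT1 is transcribed antisense to KCNQ1 from the paternal chromosome and silences genes of its imprinted domain, and MEG3 is the maternally expressed RNA of another imprinted domain. GAS5 carries small nucleolar RNAs in its introns. hnRNP A1 is itself a mostly nuclear protein that regulates splicing.

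The bound sequences of the sites other than TUG1 are shown first. They were read on the RNA strand from the human genome GRCh37 (the hg19 coordinates of the lists), with T for U, and capitals mark the longest run of purines (A or G) in each cluster. The KCNQ1OT1 site is given by the longer of its clusters, since it was found in both A1 libraries.
KCNQ1OT1, A1 replicate 2, chr11:2680238-2680267, minus strand: agtGAAAGGAAAGGAGGAGGAGGAGctggc

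The MALAT1 sites are shown together because each was found in a single library and the groups used different ones. All are on the plus strand and are numbered from the 5′ end.
MALAT1 site 1, A1 replicate 2, chr11:65267174-65267190: AGAGAAGAtagggaaat
MALAT1 site 2, A1-HMW replicate 1, chr11:65268034-65268052: ctAGGAAGAAGGAAGGAGc
MALAT1 site 3, A1dm replicate 1, chr11:65269014-65269041: GGAAGAGAGAGGGtgggggagaaaatgt
MALAT1 site 4, A1 replicate 2, chr11:65269087-65269103: tgggttAGAGAAGGAGt
MALAT1 site 5, A1dm replicate 2, chr11:65269516-65269537: gaattgggaagctGGGGGAAGt

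The NEAT1 sites, also on the plus strand, include the clusters nearest to the 5′ end of a member gene, and the GAS5 site on the minus strand is the one with the fewest purines.
NEAT1 site 1, A1 replicate 1, chr11:65190281-65190304: AGGGAGGGAtgcgcgcctgggtgt
NEAT1 site 2, A1 replicate 1, chr11:65190601-65190624: GGAAGGAGGAAGGcagggagaggt
NEAT1 site 3, A1 replicate 2, chr11:65192450-65192470: GAAGAAGGGGAGAGGGttggt
NEAT1 site 4, A1dm replicate 1, chr11:65195388-65195406: GGGGAttggaagtggggat
GAS5, A1dm replicate 2, chr1:173833971-173833991: gtctttcgctcctatctGAtg

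The lists differed greatly in size, from 5805 and 8100 clusters for A1 through 671 and 865 for A1-HMW to 232 and 596 for A1dm. The lists gave no read numbers, and those in the study's supplement were not used here, so all clusters counted equally. For 2 libraries per group the smallest two-sided p of an exact permutation is 0.333, and since these RNAs were chosen with earlier results known, their counts are given as descriptions beside the same counts over all regions.

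TUG1 was the RNA bound in every library, and always at the same place. Its site, on chromosome 22, began 5563 nucleotides after the annotated 5′ end, 54.8% of the way along the gene of 10151 nucleotides. Each of the 6 libraries held exactly 1 TUG1 cluster, and all 6 overlapped. Of the 11416 regions covered in any library, 8 were found in all 6 (0.0701%), and the TUG1 site was 1 of them. Of the 5 members with any cluster, TUG1 alone had one in all 6 libraries, and 0.292% of the 3772 genes with any cluster had one in each. Of the 12 member sites, it was the only one shared between groups.

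The TUG1 clusters differed in length but kept a common core. They were 29 and 21 nucleotides long in A1, 20 and 28 in A1-HMW, and 20 and 28 in A1dm. The core, present in all 6, was the run of 19 purines with the T that follows it. The A1-HMW and A1dm clusters began with the run itself, 5572 nucleotides from the annotated 5′ end. The A1 clusters began at 5563 in replicate 1 and at 5571 in replicate 2, so only replicate 1 reached clearly further upstream. Replicate 1 of A1-HMW and of A1dm had the same first and last base, and so did replicate 2 of both. Over all sites, 47.4% of the 38 overlapping clusters of the replicate 1 libraries and 32.9% of the 82 of the replicate 2 libraries had identical bounds, against 36.7% of 139 between the A1-HMW replicates, so such identity was frequent throughout the lists.

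**Figure D1:**
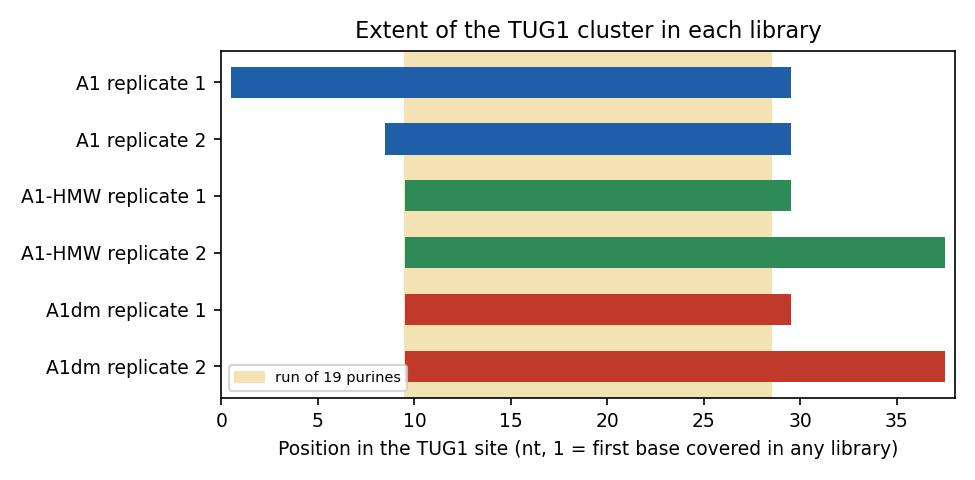
Extent of the TUG1 cluster (horizontal axis, nucleotides from the first base covered in any library) in each of the 6 libraries, coloured by group (A1 blue, A1-HMW green, A1dm red), with the run of 19 purines shaded. Every bar spans the run, the 2 A1 bars start before it, and the bars of A1-HMW replicate 2 and A1dm replicate 2 extend beyond it to 28 nucleotides.

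The TUG1 site lay in an intron of the spliced RNA. In the transcript that the annotation marks as canonical, which has 3 exons, it fell in intron 2, at 1220 nucleotides from the upstream exon and 325 from the downstream one. Of the annotated TUG1 transcripts that span it, 1 has it in an exon and 16 have it in an intron. No other TUG1 stretch held a cluster, although the gene has 9 runs of 12 or more purines, and 1 of the other 8 was longer, at 20 nucleotides. The annotation lists TUG1 as protein-coding.

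KCNQ1OT1 was bound in both A1 libraries and in no other. Its clusters, 26 and 30 nucleotides long, covered 1 site on chromosome 11, from 2680238 to 2680267, at 40966 nucleotides from the annotated 5′ end, or 39.9% of a gene of 102696 nucleotides. The site holds a run of 22 purines in both A1 replicates, followed by C. The annotation has 1 transcript with the site in an exon, the long unspliced form, and 7 with it in an intron. The protein-coding gene KCNQ1, a potassium channel gene, lies over it on the opposite strand and had 0 clusters in any library, so these clusters can be told apart from KCNQ1 by strand.

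The recurrence of the KCNQ1OT1 site stands beside that of the whole A1 group. Of the 7 member sites with an A1 cluster, 2 (KCNQ1OT1 and TUG1) were found in both A1 replicates, and 31.5% of all 10574 A1 regions were. The long RNA offered many other purine stretches. KCNQ1OT1 has 115 runs of 12 or more purines, the longest of 60 nucleotides, and 1 of them held a cluster. A total of 6 of its unbound runs were longer than the bound one.

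MALAT1 was bound by all 3 groups, but each time at another position. A1 replicate 2 held 2 clusters, A1-HMW replicate 1 held 1, A1dm replicates 1 and 2 held 1 each, and A1 replicate 1 and A1-HMW replicate 2 held 0. The 5 sites began at 2063, 2923, 3903, 3976 and 4405 nucleotides from the annotated 5′ end, so they lay between 19.8 and 42.2% of the 10434 nucleotides of the gene. No cluster lay 5′ of the first or 3′ of the last of these sites.

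The closest pair of MALAT1 sites joined the mutant and the wild-type protein. The A1dm site 3 ended 45 nucleotides before the A1 site 4, and the other gaps were 843, 961 and 412 nucleotides. No MALAT1 site was shared between replicates or between groups. All 5 lay in the single exon of the canonical transcript, and between 9 and 23 of the annotated spliced forms have each of them in an intron. The sequence of site 1, 17 nucleotides long, has 1 further exact copy in the genome, on chromosome 1 from 104061782 to 104061798 in RNPC3-DT, so its place is less certain. The other 17 member clusters matched the genome exactly at their own position alone.

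NEAT1 clusters of A1 lay near the start of the RNA and that of A1dm lay farther in. A1 replicate 1 held clusters 36 and 356 nucleotides from the annotated 5′ end, A1 replicate 2 held 1 at 2205, and A1dm replicate 1 held 1 at 5143. The other 3 libraries held 0. The A1 sites thus lay within the first 9.69% of the 22767 nucleotides and the A1dm site at 22.6%.

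The NEAT1 gene makes a short and a long form from a shared start region. Sites 2 and 3 were exonic in 6 annotated transcripts each and site 1 in 4, whereas the A1dm site 4 was exonic in 1, the long form that runs to the end of the gene. No NEAT1 site was found in more than 1 library, and the A1-HMW libraries, with 671 and 865 clusters, held none.

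**Figure D2:**
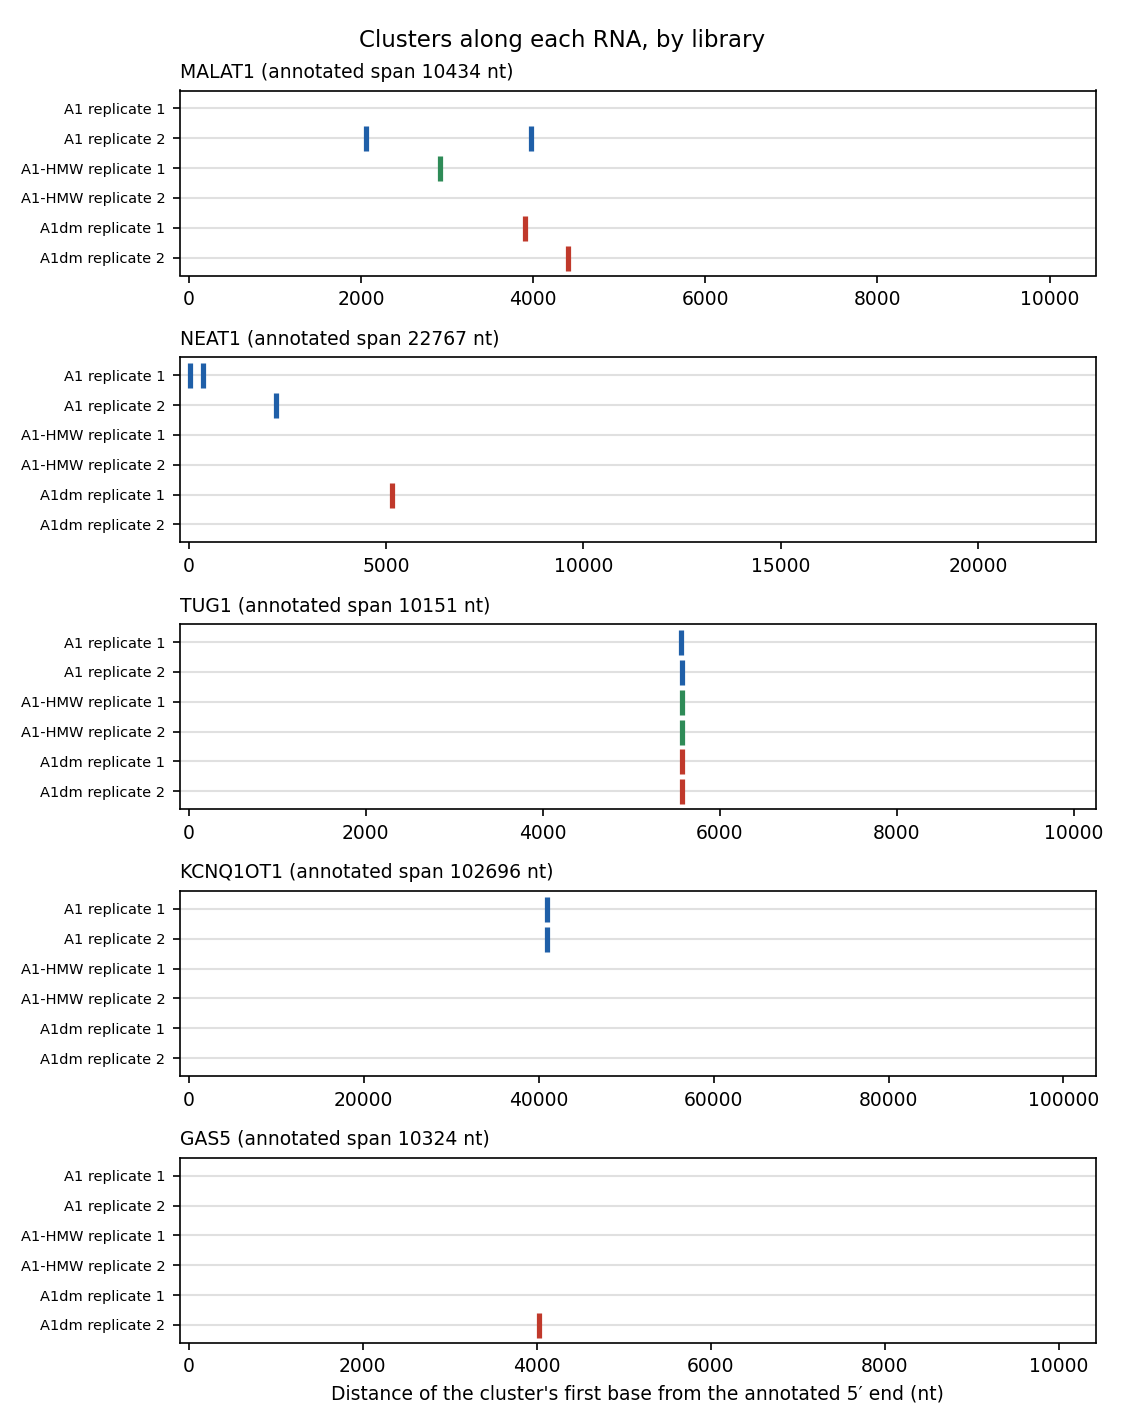
Position of each cluster along MALAT1, NEAT1, TUG1, KCNQ1OT1 and GAS5 (horizontal axis, nucleotides from the annotated 5′ end to the first base of the cluster), with 1 line per library, coloured by group (A1 blue, A1-HMW green, A1dm red). The 6 TUG1 marks stand in 1 column and the 2 KCNQ1OT1 marks in another, and the marks of MALAT1 and NEAT1 stand apart from each other. MEG3, with 0 clusters, is not drawn.

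The GAS5 gene held 1 cluster, of A1dm. Its cluster in A1dm replicate 2 lay on chromosome 1 from 173833971 to 173833991, 4029 nucleotides from the annotated 5′ end, in intron 8 of the canonical transcript of 12 exons. The deposited list puts it 28 nucleotides from the nearest annotated transcript start, inside the gene. Of the 21 bases, 6 were purines (28.6%), the lowest share among the 18 member clusters, and 9 were T. Clusters under 50% purines made up 10.4% of all clusters in A1dm replicate 2 and 7.93% in A1dm replicate 1, against 0.207 and 0.383% in the A1 libraries.

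GAS5 is a host gene, and RefSeq lists 11 small nucleolar RNA genes inside it. The annotation used for placing clusters holds 1 of them, SNORD78, and the cluster does not lie there. Whether it belongs to one of the others or to GAS5 itself was not tested.

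MEG3 was not found in any list. A count of 0 allows MEG3 up to 0.0517 and 0.037% of the A1 clusters, 0.447 and 0.347% in A1-HMW, and 1.29 and 0.503% in A1dm. These limits are 3 clusters of each total and cover counting error only. MEG3 did have purine stretches, with 100 runs of 12 or more in a gene of 81622 nucleotides, or 1.23 per kb, beside 1.25 per kb in MALAT1 and 0.887 per kb in TUG1. The lists do not tell whether MEG3 was present in these cells.

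Which sites did the mutant and the upper band keep? Of the 7 member sites with an A1 cluster, 1 also held an A1dm cluster and 1 an A1-HMW cluster, and in both cases it was TUG1. Over all 10574 A1 regions, 380 held an A1dm cluster (3.59%) and 953 an A1-HMW cluster (9.01%). Of the 2 member sites found in both A1 replicates, TUG1 was kept by both and KCNQ1OT1 by neither, while 7.6% of all A1 regions found in both replicates held an A1dm cluster and 20.0% an A1-HMW cluster. With 7 sites, 1 of which was kept, no difference from the background can be read.

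The reverse overlap was read likewise. Of the 5 member sites with an A1dm cluster, 1 held an A1 cluster, and 47.9% of all 794 A1dm regions did. The other 4 were MALAT1 sites 3 and 5, NEAT1 site 4 and GAS5. Of the 2 member sites of A1-HMW, 1 held an A1 cluster, and 68.1% of all 1397 A1-HMW regions did. The other was MALAT1 site 2. Of the 12 member sites, 10 were found in 1 library only, and 67.2% of the 11416 regions of any library were. Of the 2 A1-HMW sites 1 was found in both A1-HMW replicates and held an A1dm cluster, beside 9.95 and 11.9% of all A1-HMW regions, and of the 5 A1dm sites 1 was found in both A1dm replicates and held an A1-HMW cluster, beside 4.28 and 20.9% of all A1dm regions. Each of these was the TUG1 site. The lists do not tell a site that was not bound from one with too few reads to be called.

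Counted by RNA rather than by site, the mutant was found on more of them. Of the 4 member RNAs with an A1 cluster, 3 (MALAT1, NEAT1 and TUG1) also had an A1dm cluster, and of all 3534 genes with an A1 cluster 316 did (8.94%). A1-HMW was found on 2 of the 4 (MALAT1 and TUG1), and on 563 of all these genes (15.9%). MALAT1 was also among the 26 of 444 genes with A1dm clusters (5.86%) that held 2 or more A1dm regions. GAS5 had an A1dm cluster and no A1 cluster, as did 128 of the 444 (28.8%). The part of RNA length and abundance in these counts was not tested.

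The 6 RNAs took a larger share of the A1dm lists than of the A1 lists. The member clusters numbered 4 and 5 in A1, 2 and 1 in A1-HMW, and 3 and 3 in A1dm. They made up 0.0689 and 0.0617% of the A1 clusters (95% Wilson intervals 0.0268 to 0.177% and 0.0264 to 0.144%). In A1-HMW they made up 0.298 and 0.116% (0.0818 to 1.08% and 0.0204 to 0.652%).

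In A1dm the shares were 1.29 and 0.503% (0.441 to 3.73% and 0.171 to 1.47%). The mean share of A1 was 0.0653% ± 0.00508 (SD, n = 2), that of A1-HMW was 0.207% ± 0.129 (SD, n = 2), and A1dm reached 0.898% ± 0.558 (SD, n = 2). Both A1dm libraries lay above the other 4, but the interval of A1dm replicate 2 overlapped that of A1 replicate 1. The intervals of both A1dm libraries also overlapped those of both A1-HMW libraries. The intervals cover counting error only. Within replicate 1 the A1dm share was 1.22 percentage points above the A1 share, and within replicate 2 it was 0.442 above. The A1-HMW share was 0.229 and 0.0539 percentage points above A1. The A1dm mean would be 0.503% without replicate 1 and 1.29% without replicate 2.

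The shares followed the size of the lists. Ordered from the largest list to the smallest, the share was higher at each step, from 0.0617% in A1 replicate 2 with 8100 clusters to 1.29% in A1dm replicate 1 with 232. TUG1, with 1 cluster in each list, has such an order by construction. Without TUG1 the shares were 0.0517 and 0.0494% in A1, 0.149 and 0% in A1-HMW, and 0.862 and 0.336% in A1dm. For A1-HMW replicate 2 this was 0 of 865 clusters, which allows a share of up to 0.347%. Without TUG1 the A1dm share was 0.81 and 0.286 percentage points above A1 within replicates 1 and 2, and the difference of A1-HMW from A1 was 0.0974 and -0.0494. All member clusters touch an annotated exon of some transcript, and such clusters differed in number across the lists. They were 1746 of the 13897 clusters with a sequence in A1, 259 of 1534 in A1-HMW and 250 of 816 in A1dm. The part of list size and of exonic clusters in the difference between the groups was not tested.

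**Figure D3:**
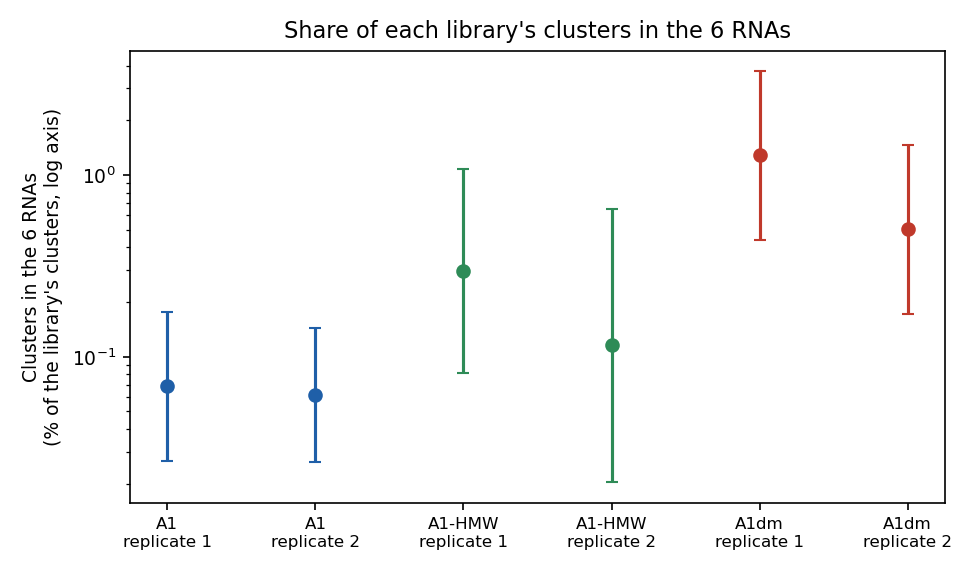
Share of each library's clusters that lay in the 6 RNAs (vertical axis, percent, log scale), as points with 95% Wilson intervals, coloured by group (A1 blue, A1-HMW green, A1dm red). The A1 points are at 0.0689 and 0.0617%, and the A1dm points at 1.29 and 0.503% lie above the other 4.

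The member sites were mostly rich in purines, and their medians, with TUG1 included, stood near those of the whole lists. The A1 member clusters held between 66.7 and 92.3% A or G, with a median of 88.2%, and the median of all A1 clusters was 91.7%. The lowest was NEAT1 site 1 and the highest was KCNQ1OT1 in A1 replicate 1. The 3 A1-HMW clusters held 84.2 to 95% with a median of 92.9%, against 90.9% over all A1-HMW clusters. The 6 A1dm clusters held 28.6 to 95% with a median of 84.1%, against 88.0% over all A1dm clusters. Each library's TUG1 cluster is among these. Outside TUG1, the A1-HMW cluster held 84.2% and the A1dm clusters held 89.3, 77.3, 78.9 and 28.6%.

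A run of at least 12 purines was present in 6 of the 9 A1 member clusters, in 3 of 3 of A1-HMW and in 3 of 6 of A1dm. Over all clusters with a sequence these shares were 97.3, 85.9 and 60.5%. The 3 A1 clusters without such a run were MALAT1 sites 1 and 4 and NEAT1 site 1. In the MALAT1 sites T splits the purines, and in NEAT1 site 1 both T and C do. The A1dm clusters without a run were MALAT1 site 5, NEAT1 site 4 and GAS5. Among A1 clusters that touch an annotated exon of any gene, as all 9 of these do, the share with a run was 95.5%. The member counts depend on the minimum length. Runs of at least 10 purines were present in 7 A1, 3 A1-HMW and 3 A1dm member clusters. For runs of at least 8 the counts were 9, 3 and 4.

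Short words were searched too. The word GAGGAA, searched on the RNA strand, was present in 1 of the 18 member clusters, that of NEAT1 site 2, and in 32.8% of all clusters. The word TAGG, part of the UAGG-containing sequences to which hnRNP A1 is known to bind, was present in 2 of 18, MALAT1 sites 1 and 2, and in 4.57% of all. Of the 18 clusters, 17 ended in T or C, as did 88.7% of all clusters, and the exception was GAS5. The 18 come from 12 sites, 6 of them from the 1 TUG1 sequence, so they are not independent.

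**Figure D4:**
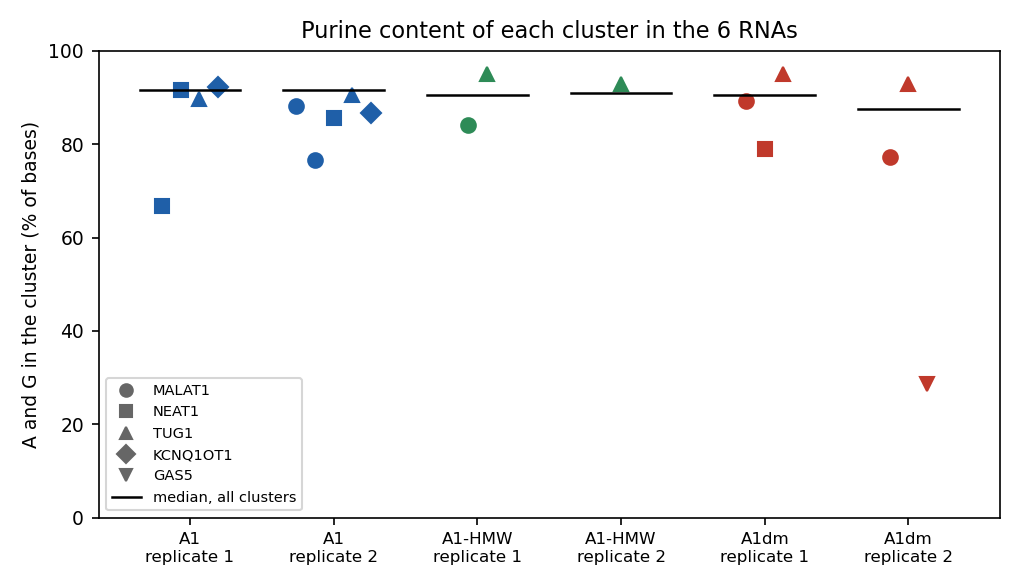
Share of A and G (vertical axis, percent of bases) in each of the 18 clusters, by library, with the shape giving the RNA, the colour the group, and a black line at the median of all clusters of the library. The TUG1 triangles lie between 89.7 and 95% in all 6 libraries, and the GAS5 triangle lies at 28.6%.

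Few of the purine runs along these RNAs carried a cluster. Together the 6 genes hold 261 runs of 12 or more purines, 13 in MALAT1, 19 in NEAT1, 9 in TUG1, 115 in KCNQ1OT1, 100 in MEG3 and 5 in GAS5. A cluster of any library lay on 6 of them (2.3%), namely 2 in MALAT1, 2 in NEAT1, 1 in TUG1 and 1 in KCNQ1OT1. Over all annotated genes 8261 of 1648178 runs did (0.501%). The share for A1dm alone was 0.766% in the members (2 runs) and 0.0259% over all genes. That of A1-HMW was also 0.766% (2 runs), against 0.0614%, and that of A1 was 1.53% (4 runs), against 0.48%. These are shares of runs whether or not the RNA is made in the cells, so they carry the level of each RNA, which was not measured.

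**Figure D5:**
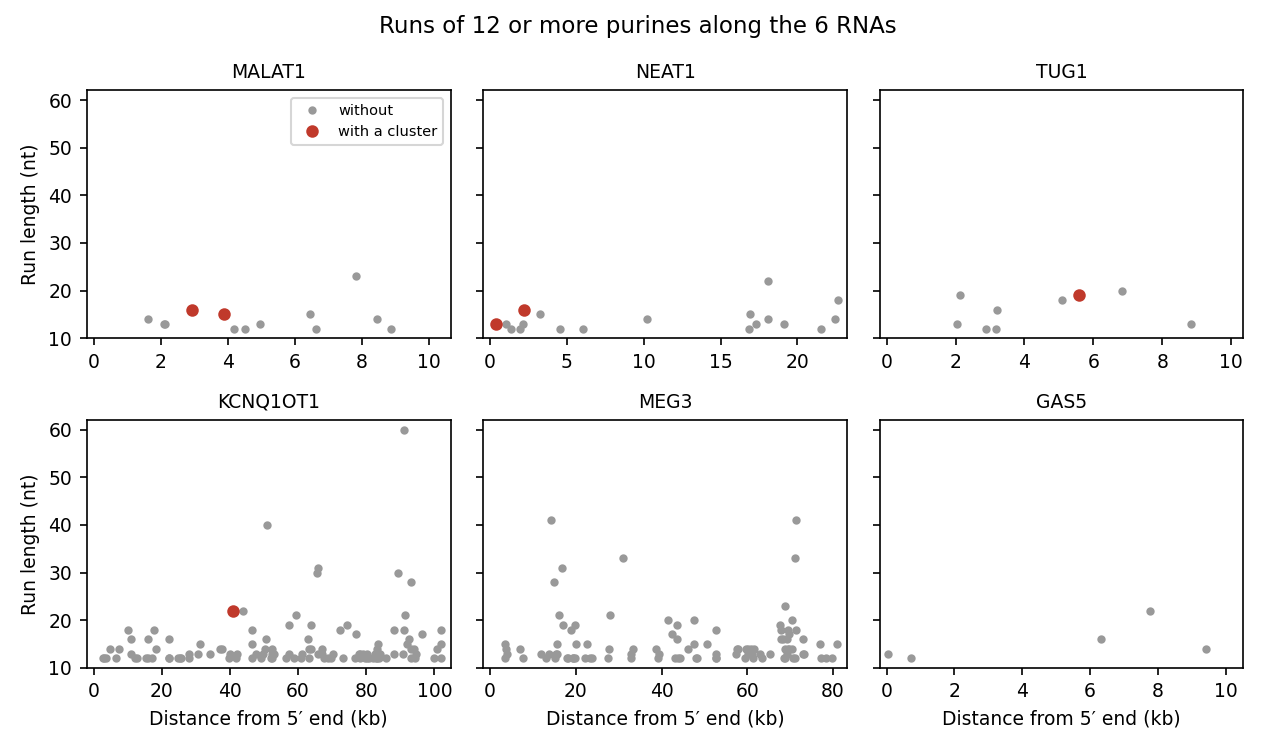
Length (vertical axis, nucleotides) and distance from the annotated 5′ end (horizontal axis, kb) of each run of 12 or more purines in the 6 RNAs, in red where a cluster of any library lies on the run and in grey otherwise. The bound runs, 6 of 261, are 13 to 22 nucleotides long, and in MALAT1, NEAT1, TUG1 and KCNQ1OT1 the longest run of the RNA (23, 22, 20 and 60 nucleotides) had no cluster. MEG3 had none on any of its runs, the longest of 41 nucleotides.

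No cluster lay on the opposite strand inside any of the 6 genes, and none lay within 5000 nucleotides outside them. TALAM1, the antisense RNA of MALAT1, therefore had none over MALAT1.

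Other long noncoding RNAs of the nucleus gave sites in the A1 libraries alone when counted by the same rule. Of 23 such genes in the annotation, 5 had clusters, 4 in A1 replicate 1 and 5 in A1 replicate 2, and none had one of A1-HMW or A1dm. Of all 18678 annotated genes for long noncoding RNAs, 1.47% had a cluster in any library. By position and strand alone, 6 of the 23 genes held 30 clusters, so the counts for these genes rest on the rule. LINC-PINT, an RNA induced by p53, CRNDE and MIR17HG, the host of a microRNA cluster, each had 1 intronic site that was found in both A1 replicates. DLEU2, another microRNA host, had 2 intronic sites in A1 replicate 2 alone. These are the sites found by the rule, with 2 clusters in each of the 4 genes. By position and strand alone DLEU2 held 13 clusters, LINC-PINT 4, MIR17HG 4 and CRNDE 2. By the rule, the A1 sites of this list numbered 6, of which 0 held an A1dm or an A1-HMW cluster, and 1 of 7 did in the members. With so few sites no difference can be read from this.

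Other host genes of small nucleolar RNAs gave no site by the same rule. None of 23 such genes had a cluster by the rule, whereas GAS5 had 1. By position and strand alone, whatever gene the list named, 4 of them held 13 clusters, so the lack of sites rests on the rule. ZFAS1 was among these 4, with 2 clusters, and SNHG1 had 0 either way.

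The genes for proteins of paraspeckles and nuclear speckles, the bodies in which NEAT1 and MALAT1 lie, gave sites in all 3 groups. Of 18 genes 11 had clusters, beside 17.1% of the 20149 annotated protein-coding genes. A1 was found on 8 of them, A1-HMW on 4 and A1dm on 5, beside 5.67, 1.09 and 0.713% of all annotated genes of any type. PNN, which encodes the speckle protein pinin, had an exonic site on chromosome 14 from 39649915 to 39649941 in both A1 replicates, A1-HMW replicate 2 and A1dm replicate 1. SON, which encodes a large speckle scaffold, had 4 exonic sites, 2 in A1 replicate 2 and 1 in each A1dm replicate, with no site in common.

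ACIN1, a gene for a splicing-associated protein, had 1 exonic site in A1 replicate 2 and A1-HMW replicate 2, and DAZAP1, for an RNA binding protein, had 1 intronic site in A1 replicate 2 and another in A1dm replicate 1. Of the 10 A1 sites of this list, 1 held an A1dm cluster and 3 an A1-HMW cluster, beside 3.59 and 9.01% of all A1 regions.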

How the data were processed

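PAR-CLIP libraries of 3 protein bands were compared, with 2 libraries per band. Per the paper's methods, the authors trimmed adapters with BBduk, removed ribosomal RNA, mapped with STAR, examined T-to-C changes with wavClusteR and called sites with PARalyzer. The submitters' processing notes name Bowtie and hg19. Per the file headers, the deposited lists are wavClusteR clusters of single libraries, annotated by HOMER with hg19 and Ensembl release 87. Versions are not given in the sources used here. In the deposited lists the score was 0 on all lines, and the other columns gave positions and distances.

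The start was taken from the cluster identifier, 1 nucleotide before the listed start in 100% of lines. With it, 100% of the clusters with a sequence held a T. Clusters were placed on GENCODE release 44 lifted to GRCh37, the build of the lists. Same-strand clusters that shared 1 nucleotide or more formed a site or region. Mitochondrial clusters were given no sequence. The sequence of the TUG1 site is not reported here. Shares carry 95% Wilson intervals (scipy 1.17.1). Overlap and assignment were tested on simulated data. Per the methods, all 3 bands were sequenced in 2 independent experiments. The titles number replicates without saying that a number marks an experiment, so values within a number are given beside the group means, and A1 and A1-HMW, bands of the wild-type precipitate, may share material.

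The members and comparison lists were chosen with earlier results of these data known. The rule for named genes was all 6 members, and from each comparison list up to 4 genes with most clusters, ties by symbol. The words GAGGAA and TAGG were chosen after the clusters were seen, and genes named outside these rules (KCNQ1, TALAM1, RNPC3-DT, SNHG1 and ZFAS1) likewise. Of 25 nuclear RNAs listed for comparison, 23 symbols were in the annotation. Alternatives changed the assignment, start, overlap, denominator and run length, and left out each library in turn.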

Additional observations from a re-analysis of the deposited data

How the results depend on the processing

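Of 72 values under other settings, 68 for 16 results stayed within the spread between replicates or, for counts, within 1.5 times. For the member RNAs, assigning clusters by position and strand alone found the same numbers as the rule. The listed start and exons of any transcript did so too. With exons of the canonical transcript only, a setting added once the data had been seen, libraries held on average 2.5 clusters in A1, 0.5 in A1-HMW and 1.5 in A1dm, against 4.5, 1.5 and 3.0, because the TUG1, KCNQ1OT1 and GAS5 sites lie in introns of that transcript. With clusters inside genes as the denominator, the A1 share was 0.0861% in place of 0.0653%, from the smaller denominator. Leaving out 1 library gave 4.0 to 5.0 clusters for A1, 1.0 to 2.0 for A1-HMW and 3.0 for A1dm, shares of 0.0617 to 0.0689%, 0.116 to 0.298% and 0.503 to 1.29%, and the same 1 shared A1 site, TUG1. With 2 libraries per group, such counts and shares lie within the spread between replicates by construction. TUG1, with a cluster in every library, likewise stays shared. These values are among the 68 but cannot show stability. No paired analysis was possible because these results come from no test, and differences within each replicate number stand beside the shares. Without read numbers, from the lists, a missing cluster does not show that an RNA was not bound.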
